A study of Mus musculus with 2 samples.

Results

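Aquaporins are membrane channels that let water, and in some members glycerol, cross cell membranes, and the vasopressin V2 receptor sets how much water the collecting duct takes back. The 10 genes described here are the water channels Aqp1, Aqp2, Aqp3, Aqp4, Aqp5, Aqp6, Aqp7, Aqp8 and Aqp11 and the receptor gene Avpr2, chosen by their symbols from a table of 30744 gene symbols. All 10 were found, each with 1 gene model. Total RNA-seq of 1 normal mouse kidney and 1 mouse kidney tumour was compared. The normal kidney carried a genotype labelled WT and no doxycycline was given. For the tumour the labels give the genotype Tet-OSKM/mPer2-luc and doxycycline treatment, which switches on a transgene for the reprogramming factors Oct4, Sox2, Klf4 and c-Myc. The second allele reports the activity of the clock gene Per2 by luciferase. The labels give C57BL/6 x DBA/2 F1 as strain background for both, and state for both that embryonic stem cells with Rosa26-M2rtTA, TetO-OSKM and mPer2-luc were placed in hybrid blastocysts. A chimera also holds cells of the host embryo, and it was not stated whether the normal kidney came from a chimera, how old the animals were or at what time of day tissue was taken. The series title asks how the circadian clock is altered in such tumours.

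In the kidney, AQP1 makes the proximal tubule and the descending thin limb permeable to water. In the principal cells of the collecting duct, vasopressin binds the V2 receptor, which raises cyclic AMP and activates protein kinase A, and AQP2 then moves from vesicles to the apical membrane, while AQP3 and AQP4 let the water leave through the basolateral membrane. Transcripts of Aqp2 and Avpr2 are known to vary over the day in rodent kidney.

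Of the 10 genes, 8 had lower levels in the tumour library and 2, Aqp8 and Aqp5, had higher levels. The lower ones differed by 5.47-fold for Aqp3 to 142-fold for Aqp1. A fold compares counts scaled by TMM (trimmed mean of M-values) and is followed by an exact 95% interval that the 2 counts give. A gene was called when the fold was at least 2 and its interval did not include equal levels. It was taken as measured when its reads in the 2 libraries summed to 20 or more. Aqp5, with 15 reads, was under that minimum. Of the 9 measured members 8 were called lower and 1 higher, where 28.0% of all 16326 measured genes were called lower and 31.2% higher. At least 8-fold lower levels were found for 7 of the 10 members, against 9.16% of all measured genes. The median log2 ratio over all 10 members, with Aqp5 at its bound, was -5.05, beside 0.08 for all measured genes. Each group is a single library, so there is no replicate check. All folds compare these 2 libraries and not the conditions, and the intervals cover counting error only. In whole tissue, fewer cells of a type and less RNA per cell cannot be told apart.

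The normal library held 29258428 reads on exons and the tumour library 20836819. Mitochondrial transcripts took 10.6% of them in normal kidney and 1.22% in the tumour, and the ribosomal RNA precursor Rn45s took 0.304% and 2.73%. Pou5f1 (Oct4) had 0 reads in normal kidney against 11358 in the tumour, and Sox2 had 0 against 3820. Of 7 markers of pluripotent cells all 7 were called higher in the tumour, with a summed level of 0.124 CPM (TMM-scaled counts per 1e6) against 1649 CPM. Of all calls 52.8% were higher. Scaling by plain CPM gave 67.6%, by header totals 62.5%, and RPKM plus 0.1 gave 62.6%. These 3 scalings moved the median log2 ratio of all genes up by 0.56, 0.35 and 0.32, and the members' calls were the same in each.

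Promoter windows of 9 of the 10 genes were found in the RefSeq table on GRCm38.p6, each from 250 bases before to 50 bases after a transcript start. They are shown because 4 of the 9 share the same motif. CACGTG, an E-box that CLOCK and BMAL1 bind, as do other factors, was present in the windows of Aqp2, Aqp5, Aqp6 and Aqp8. It was found in 7.15% of all 32851 windows in the table. Which factor, if any, binds these sites was not tested. CACGTG reads the same on both strands. These 4 genes include Aqp2 and Aqp6, which were lower in the tumour library, and Aqp8 and Aqp5, which were higher, so the letters occur beside differences in either direction. Aqp2, Aqp5 and Aqp6 lie next to each other on the same strand of chromosome 15, with 6482 bases between Aqp2 and Aqp5 and 6570 bases between Aqp5 and Aqp6. The Aqp2 window (chr15:99578806-99579105, plus strand) is given whole. Its capitals mark, from 5′ to 3′, the core of a cyclic AMP response element (TGACG on the opposite strand), a GATA motif (AGATAA on the opposite strand) and the E-box, whose first base lies 58 bases before the start.
Aqp2: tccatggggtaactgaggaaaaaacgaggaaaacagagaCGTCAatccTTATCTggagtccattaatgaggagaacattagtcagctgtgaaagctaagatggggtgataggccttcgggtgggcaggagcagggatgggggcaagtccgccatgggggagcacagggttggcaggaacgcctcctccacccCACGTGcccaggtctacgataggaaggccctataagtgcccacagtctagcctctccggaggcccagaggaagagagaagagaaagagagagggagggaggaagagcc

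The E-boxes of the other 3 genes are shown in capitals with 24 bases on each side. Their first bases lie 87 bases before the start for Aqp5 (chr15:99590917-99590970, plus strand), 29 for Aqp6 (chr15:99601147-99601200, plus strand) and 75 for Aqp8 (chr7:123462195-123462248, plus strand). The Aqp6 start in RefSeq lies 200 bases before the start of the deposited gene model.
Aqp5: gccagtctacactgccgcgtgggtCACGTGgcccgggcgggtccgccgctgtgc
Aqp6: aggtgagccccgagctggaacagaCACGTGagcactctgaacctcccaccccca
Aqp8: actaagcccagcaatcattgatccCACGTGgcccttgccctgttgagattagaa

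Aqp3, the member with the smallest decrease, had no E-box in its window. The same was true of Aqp1, the member with the largest decrease, and of Aqp7, Aqp11 and Avpr2. The Aqp3 window held the TATA box letters TATAAA, which help to place the start of transcription, with the first base 29 bases before the start. The same letters were also found, on the opposite strand and 45 bases before the start, in Avpr2, and in 13.6% of all windows. The matches are in capitals in windows from Aqp3 (chr4:41098183-41098236, minus strand) and Avpr2 (chrX:73892033-73892086, plus strand).
Aqp3: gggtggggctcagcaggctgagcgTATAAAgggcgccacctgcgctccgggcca
Avpr2: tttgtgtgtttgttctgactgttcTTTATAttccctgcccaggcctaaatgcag

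The other motifs searched, on both strands, were the D-box TTATGTAA of the clock output factors, in 0 of 9 member windows and 0.938% of all windows, and the full cyclic AMP response element TGACGTCA, in 0 of 9 and 1.79%. Its core TGACG, which the full element contains, was found in 1 of 9 windows, that of Aqp2, and in 20.8% of all. AGATAA, a site for GATA factors such as GATA2 and GATA3 of the collecting duct, was found in 2 of 9, Aqp2 and Aqp7, and in 11.2% of all. CG pairs ranged from 0 in the Aqp7 window to 46 in that of Aqp5, with a median of 7 over all windows. A match describes letters and does not show binding.

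**Figure D1:**
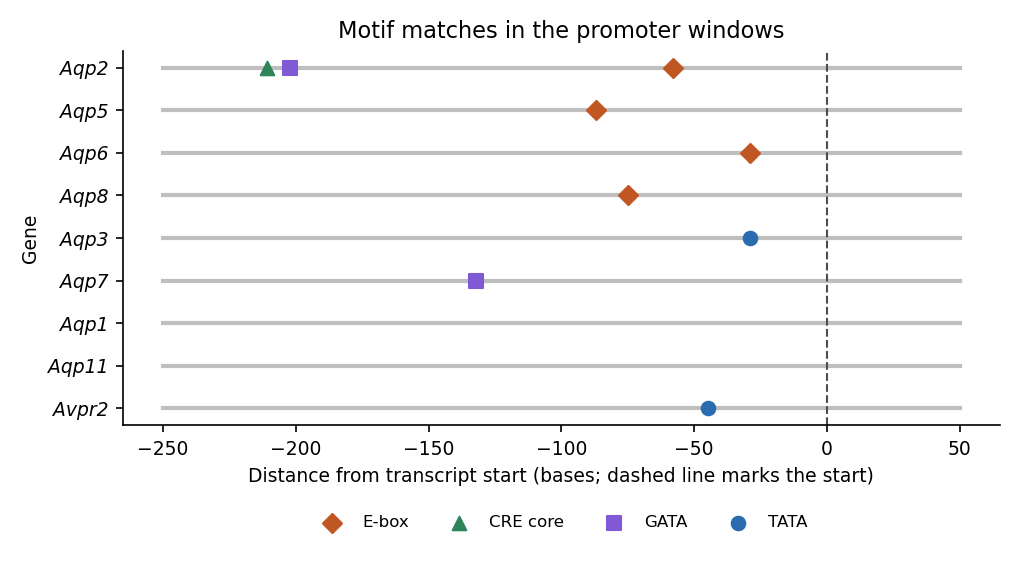
Motif matches in the promoter windows of 9 genes, by distance in bases from the transcript start (dashed line). Diamonds mark the E-box, found in Aqp2, Aqp5, Aqp6 and Aqp8, the triangle the core of the cyclic AMP response element (CRE core) and squares the GATA motif. Circles mark the letters TATAAA, in Aqp3 and, on the opposite strand, in Avpr2.

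The lowest tumour-to-normal ratios among the 10 genes were those of Aqp1 and Aqp7, both channels of the proximal tubule. Aqp1 (chromosome 6, 55336299 to 55348555, mm10), the main water channel of the proximal tubule, descending thin limb, vasa recta and red cells, had 26484 reads in normal kidney against 196 in the tumour. That is 238 against 2.14 RPKM, the deposited level per model length and library total, and a 142-fold lower scaled count (123 to 164). Aqp7 (chromosome 4, 41033074 to 41048136), a water and glycerol channel of the last part of the proximal tubule, had 859 and 9 reads, or 8.45 and 0.108 RPKM. It was 100.05-fold lower (52.5 to 219.5). Aqp11 (chromosome 7, 97726379 to 97738247), an intracellular channel of proximal tubule cells whose loss in mice leads to cystic kidneys, had 929 and 26 reads, or 17.4 and 0.594 RPKM. It was 37.5-fold lower (25.4 to 57.6).

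Comparing 2 genes within each library needs no scaling. Among 11 such pairs, with intervals not adjusted for their number, Aqp11 had 0.0351 reads for each Aqp1 read in normal kidney against 0.133 in the tumour, a 3.78-fold higher ratio (2.40 to 5.75). Aqp11 was thus less lowered than Aqp1 beyond counting error, and also less than Aqp7 (2.67-fold, 1.20 to 6.51). For Aqp7 per Aqp1 read the interval included no difference (1.42-fold, 0.636 to 2.76).

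Markers of the proximal tubule moved with these channels. All 8 markers of that segment were called lower, by 9.92-fold for the receptor Cubn to 1560.5-fold for the phosphate transporter Slc34a1 among those with more than 3 tumour reads. The amino acid transporter Slc7a13 had 23293 reads against 1. The summed level of the 8 was 34270.1 CPM in normal kidney against 911 CPM in the tumour. Aqp1 is also made by endothelial and red cells. Of 7 endothelial markers 5 were called lower and 2 were not called, with 557 and 128 CPM in sum, and the least lowered were Pecam1 (1.31-fold) and Cdh5 (1.84-fold). For red cells, Alas2, the first enzyme of haem synthesis in erythroid cells, had 378 reads in normal kidney against 147 in the tumour (2.70-fold lower, 2.22 to 3.28). Aqp7 is the glycerol channel of fat cells: of 6 adipocyte markers 4 were measured, 2 called higher and 2 lower, with 59.4 and 25.1 CPM in sum, and Adipoq, Plin1 and Lep had 0 reads in the normal library against 23, 5 and 2 in the tumour. The part of these cell types in the results for Aqp1 and Aqp7 was not tested.

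All 4 genes of the principal cell axis were called lower, and Aqp3 stood apart from the other 3. Avpr2 (chromosome X, 73892102 to 73894428), the receptor of vasopressin, had 419 and 11 reads, or 5.73 and 0.183 RPKM, and was 39.9-fold lower in the tumour library (22.1 to 80.6). Its model overlaps that of Arhgap4 on the opposite strand by 77 bases. Arhgap4 had 121 and 167 reads, and which strand the authors counted was not stated, so reads in the overlap cannot be told apart. Aqp2 (chromosome 15, 99579056 to 99584545), the channel that vasopressin controls, had 1605 and 40 reads, or 28.1 and 0.854 RPKM. It was 42.1-fold lower (30.7 to 59.1). For each Aqp2 read there were 0.261 Avpr2 reads in normal kidney against 0.275 in the tumour, and the ratio of these, 1.05, had an interval from 0.483 to 2.11.

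Aqp4 and Aqp3 are both basolateral exit channels of principal cells, yet their folds differed in size. Whether other tubule cells gave part of the Aqp4, Aqp3 or Avpr2 reads was not tested. Aqp4 (chromosome 18, 15389394 to 15403684), which is also the channel of astrocytes and muscle fibres, had 730 and 26 reads, or 3.56 and 0.154 RPKM. It was 29.4-fold lower (19.9 to 45.4). The Aqp4 model overlaps that of AK140437 on the opposite strand by 598 bases. AK140437 had 3 and 0 reads, and reads in this overlap likewise cannot be told apart. Aqp3 (chromosome 4, 41092724 to 41098183), which also carries glycerol and is made in skin and gut epithelium, had 2036 and 390 reads, or 28.7 and 6.69 RPKM. It was 5.47-fold lower (4.91 to 6.11), the smallest difference among the 8 lower genes. Within the libraries, Aqp3 had 1.27 reads for each Aqp2 read in normal kidney against 9.75 in the tumour, a 7.69-fold higher ratio (5.50 to 11.0). Against Aqp4 and Avpr2 the ratio was 5.38-fold (3.58 to 8.41) and 7.30-fold (3.98 to 14.9) higher. For Aqp4 against Aqp2 the interval included no difference (1.43-fold, 0.830 to 2.42).

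All 6 genes listed as principal cell markers were called lower, with 178 CPM in sum in normal kidney against 10.1 CPM in the tumour. Of these sums Tmem213, which may mark other collecting duct cells instead, gave 37.0 and 1.03 CPM. The 6 genes ran from 4.89-fold for Hsd11b2, the enzyme that keeps cortisol and corticosterone from the mineralocorticoid receptor, to 50.8-fold for the sodium channel subunit Scnn1g. That range also spans Aqp3, Aqp4, Aqp2 and Avpr2. For the other sources of Aqp3, 5 of 7 markers of squamous epithelium were at 0 in the normal library and had 1 to 9 reads each in the tumour, among them Krt14 with 9 and Krt15 with 7, under the read minimum. The 2 measured ones, Krt10 and Trp63, were called lower, and the list summed to 4.73 and 2.41 CPM. For Aqp4, of 7 astroglial markers 4 were measured, 3 called lower and 1 higher, with 1119 and 95.5 CPM in sum. Of the normal sum 1041 CPM were Aldh1l1, a folate enzyme also made in kidney, and Gfap had 0 and 12 reads. The astroglial marker called higher was Slc1a3, with 2.94 and 70.3 CPM (23.9-fold, 18.8 to 30.7), which gave most of the tumour sum. Of 7 skeletal muscle markers 2 were measured and called higher, with 0.829 and 15.5 CPM in sum, and the myosins Myh1, Myh2 and Myh4 were at 0 in the tumour. The part of these cells was not tested.

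Aqp6 (chromosome 15, 99601400 to 99605477), an anion-conducting channel in vesicles of acid-secreting intercalated cells, had 147 and 7 reads, or 1.77 and 0.103 RPKM. It was 22.01-fold lower in the tumour library (10.4 to 55.7). All 6 intercalated cell markers were called lower, from 5.87-fold for Atp6v0d2 to 178-fold for Slc26a4, with 245 and 10.2 CPM in sum.

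Aqp8 and Aqp5 had more reads in the tumour library. Aqp8 (chromosome 7, 123462294 to 123468003), a channel best known from gut, pancreas, liver and testis, had 6 reads in normal kidney against 122 in the tumour, or 0.101 and 2.49 RPKM. It was 19.4-fold higher (8.66 to 53.9). Aqp5 (chromosome 15, 99591028 to 99594829), the channel of salivary, tear and airway gland cells, had 0 and 15 reads. Against a floor of 3 counts, or 0.124 CPM in the normal library, the tumour level of Aqp5 was higher by at least 4.77-fold, and the lower limit of its counting interval was 3.42-fold. Its neighbours Aqp2 and Aqp6 on either side were lower by 42.1-fold and 22.01-fold.

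Markers of other tissues with these channels were sparse. Of 7 gut and pancreas markers 6 were at 0 in the normal library, and the list summed to 7.96 CPM there and 3.84 CPM in the tumour, where all 7 had reads. Of these, 2 were measured, 1 called higher and 1 lower. The lung markers Sftpc, Sftpb, Sftpa1 and Scgb1a1 were at 0 in both libraries, and the list of 7 lung and gland markers, of which 2 were measured, 1 called higher and 1 lower, summed to 5.47 and 2.81 CPM. Germ line markers stood higher, with 0.456 and 59.7 CPM in sum over 6 genes, 3 of 3 measured ones called higher, and the spermatid gene Prm1 at 0 in both. The part of such cells in the levels of Aqp8 and Aqp5 was not tested.

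**Figure D2:**
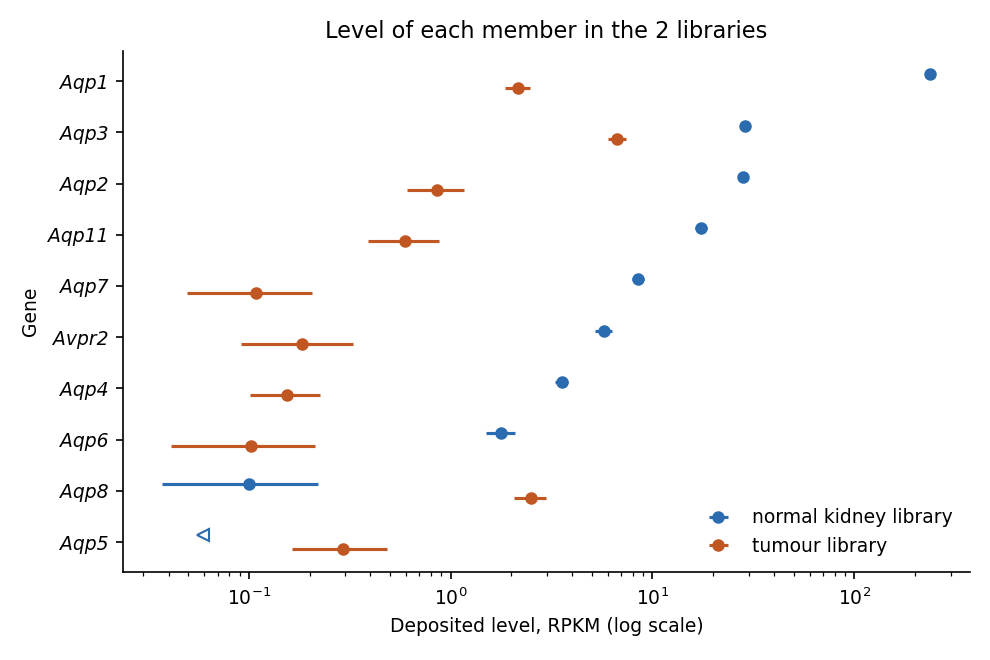
Deposited level in RPKM (log scale) of each gene in the normal kidney (blue) and tumour (orange) library, with exact Poisson 95% intervals of the counts. The open triangle is the upper limit for Aqp5 at 0 reads, and 8 genes lie to the left in the tumour while Aqp8 and Aqp5 lie to the right.

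**Figure D3:**
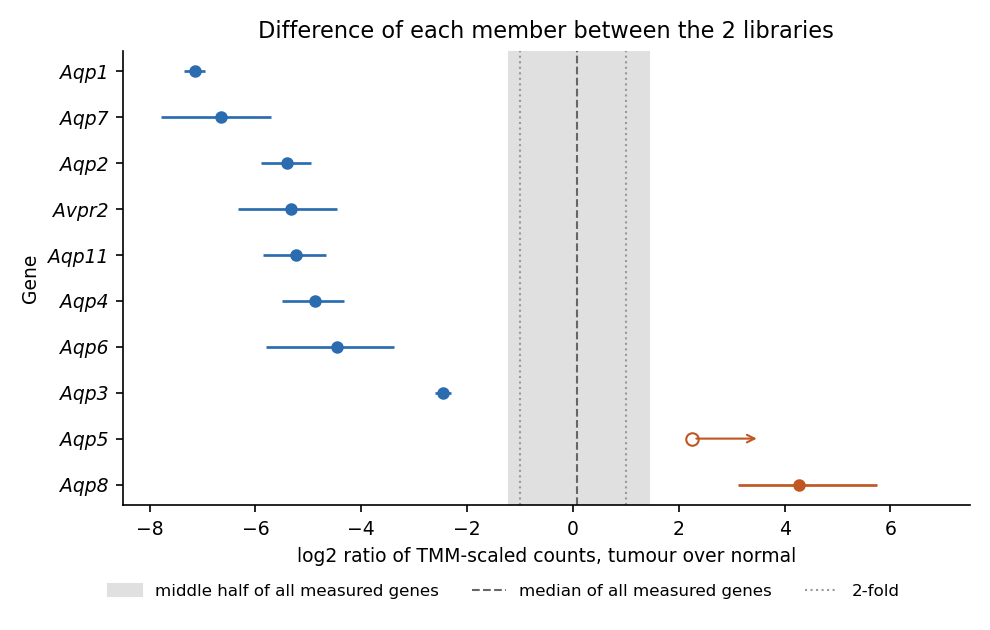
log2 of the scaled tumour count over the scaled normal count for each gene, with its 95% counting interval. The open point with an arrow is the bound for Aqp5, the grey band runs from the lower (-1.21) to the upper (1.43) quartile of all measured genes, and the 8 lower genes lie to its left from -7.15 for Aqp1 to -2.45 for Aqp3.

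Ranked by level per length, the genes stood in another order in each library. In the normal kidney it ran from Aqp1 (238 RPKM) over Aqp3 (28.7), Aqp2 (28.1), Aqp11 (17.4), Aqp7 (8.45), Avpr2 (5.73), Aqp4 (3.56) and Aqp6 (1.77) to Aqp8 (0.101) and Aqp5 (0). Only Aqp3 and Aqp2, and Aqp8 and Aqp5, had overlapping counting intervals among neighbours in that order. In the tumour library Aqp3 (6.69 RPKM) came first, followed by Aqp8 (2.49) and Aqp1 (2.14), whose intervals overlapped. Aqp2 (0.854) came next, and from there over Aqp11 (0.594), Aqp5 (0.292), Avpr2 (0.183), Aqp4 (0.154) and Aqp7 (0.108) to Aqp6 (0.103) each interval overlapped the next, so neighbours in that stretch were not told apart at this depth.

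Over the 9 aquaporins described and the other 3 in the table, summed RPKM was 326 in normal kidney against 14.1 in the tumour. Aqp1 made up 73.0% of it in the normal kidney and 15.2% in the tumour. Aqp3 made up 8.80% and 47.5%, and Aqp8 0.0308% and 17.7%. The share of Aqp2 was 8.63% and 6.06%. As counts, the aquaporins came to 1359.9 CPM (32797 reads) against 34.9 CPM (881 reads), 39.02-fold lower, and without Aqp1 to 262 and 27.1 CPM, 9.66-fold lower.

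Of the 3 other aquaporin genes, Mip, the lens fibre channel, had 0 reads in normal kidney against 35, a level higher by at least 11.1-fold in the tumour. Aqp9, a channel of liver cells, had 1 and 15 reads (14.3-fold, 2.20 to 602), and Aqp12, of the exocrine pancreas, had 0 in both. Mip alone passed the read minimum.

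**Figure D4:**
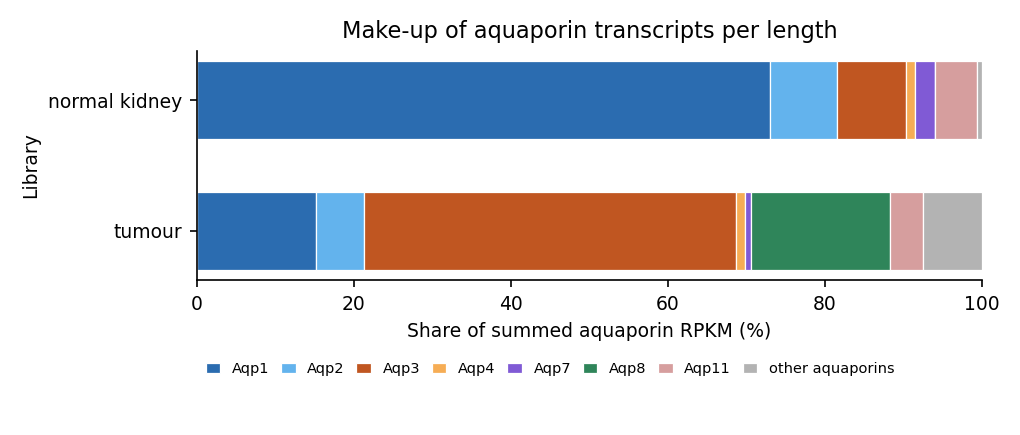
Share in percent of summed aquaporin RPKM taken by each aquaporin in the normal kidney and the tumour library. Aqp1 takes 73.0% of the normal bar, and Aqp3 (47.5%) and Aqp8 (17.7%) take most of the tumour bar.

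The partners of the water channels in urine concentration were lower almost throughout. Of 17 genes for salt, urea and osmolyte handling 16 were called lower and 1 higher, beside 28.0% and 31.2% of all measured genes, with a median log2 ratio of -4.74 beside 0.08 for all measured genes. Bsnd, the chloride channel subunit barttin, had 67.4 CPM against 0.356 CPM and was 189-fold lower (99.5 to 415). Umod, the thick limb protein uromodulin, was 166-fold lower (154 to 179.6), from 4282 to 25.8 CPM. Slc12a1, the thick limb cotransporter whose salt uptake builds the medullary gradient, was 132-fold lower (119 to 148), from 1762 to 13.3 CPM. The gene called higher was Akr1b3, aldose reductase, which makes the osmolyte sorbitol, with 28.9 and 67.01 CPM (2.32-fold, 2.12 to 2.54). The list shares Umod, Slc12a1 and Cldn16 with the 4 thick limb markers, which were all called lower with 6085 and 40.5 CPM in sum, and Scnn1b and Scnn1g with the principal cell markers. The remaining thick limb marker, Ptger3, is also in the signalling list below, and the principal cell marker Gata2 is also among the Aqp2 factors below.

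Of 10 factors known to act on Aqp2 or to mark the principal cell, 6 were called lower and 1 higher and 3 were not called, beside 28.0% of all measured genes called lower and 31.2% higher. The median log2 ratio was -2.42 beside 0.08. The mineralocorticoid receptor gene Nr3c2 had 32.8 and 1.58 CPM (20.8-fold lower, 15.1 to 29.3), and Gata2, which binds near Aqp2, 8.42 and 0.752 CPM (11.2-fold, 6.99 to 18.99). Tfcp2l1, a factor of collecting duct and of pluripotent cells, had 799 and 92.96 CPM (8.60-fold lower, 8.24 to 8.98). Grhl2, an epithelial factor, was 5.48-fold higher (4.81 to 6.28), with 10.9 and 59.8 CPM. Nfat5, the tonicity factor, and Creb1, the cyclic AMP response factor, were not called, with log2 ratios of 0.22 and 0.91, and Creb1 was called higher with plain CPM, header totals and RPKM plus 0.1.

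In a list that joins the hormone and related receptors to cyclic AMP signalling, the share of genes called lower was near that of all measured genes. Avp, the hormone gene, had 0 reads in both libraries. Of 25 genes for the hormone, related receptors and the cyclic AMP arm, 23 were measured, 7 called lower and 4 higher, and 12 were not called, beside 28.0% of all measured genes called lower and 31.2% higher. The median log2 ratio was -0.49 beside 0.08 for all measured genes. With plain CPM 5 were called lower and 6 higher, where 3297 of all 16326 measured genes were called lower and 6876 higher. The median of the list turned to 0.065 in that scaling, beside 0.64 for all measured genes. Those called lower included the prostaglandin E2 receptors Ptger3 (27.4 and 0.672 CPM, 40.8-fold, 25.3 to 70.4), which opposes vasopressin, and Ptger1 (2.41 and 0.277 CPM, 8.69-fold, 3.96 to 22.6). The adenylyl cyclase Adcy9 was 5.06-fold lower (4.42 to 5.81), with 52.04 and 10.3 CPM. Prkar2b, a regulatory subunit of protein kinase A, was 7.80-fold higher (5.82 to 10.6), with 2.11 and 16.5 CPM. Gnas, which couples the V2 receptor to the cyclases, had 351 and 249.7 CPM and was not called (log2 ratio -0.49).

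For the machinery that moves AQP2 the share called lower was likewise near that of all measured genes. Of 23 genes for its trafficking and ubiquitination 7 were called lower and 2 higher, beside 28.0% and 31.2% of all measured genes. The other 14 were not called, and the median log2 ratio was -0.53 beside 0.08. Myo5b, the motor of recycling vesicles, had 298 and 14.6 CPM (20.5-fold lower, 18.4 to 22.8), and Vamp8, a vesicle fusion protein, had 173 and 28.6 CPM (6.07-fold, 5.61 to 6.58). Nedd4l, a ubiquitin ligase that also acts on the epithelial sodium channel, had 122 and 24.4 CPM (5.002-fold lower, 4.58 to 5.46). Its relative Nedd4 was 2.23-fold higher (2.19 to 2.27), with 666 and 1486 CPM. With plain CPM, header totals or RPKM plus 0.1 the number called lower was 4, where 3297, 3713 and 3552 of all 16326 measured genes were. With plain CPM 4 were called higher, where 6876 of all measured genes were. The median of the list turned to 0.023 in that scaling, beside 0.64 for all measured genes.

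**Figure D5:**
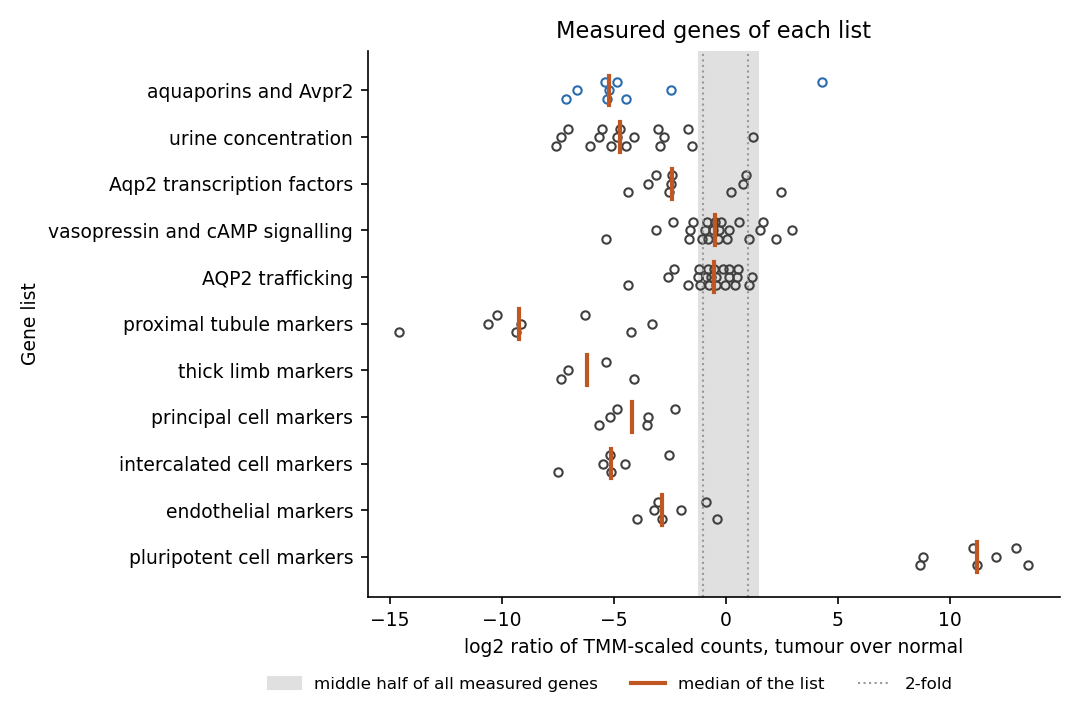
log2 ratios (tumour over normal) of the measured genes of each list (circles) with the median of the list (bar) and the range from the lower to the upper quartile of all measured genes (grey). The list of aquaporins and Avpr2 has 8 of 9 measured genes below -2, urine concentration genes have a median of -4.74, and trafficking genes have a median of -0.53.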

How the data were processed

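The authors' count file holds whole-number deposited counts of reads on exons of UCSC knownCanonical models, and its headers give library totals of 40408775 and 33169818. A second deposited file holds RPKM, which was equal to count over length and header total within 1.80e-06. Per the submitters' processing notes, the tools included bcl2fastq, STAR 2.5.0c and HOMER and the build was mm10, with no role or order. The handling of multiply mapped reads and of strand was not stated. Per the labels' protocols, ribosomal RNA was depleted and the library kit keeps the strand.

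Where a symbol had several models, the model with most reads was used. Over 16326 symbols with at least 20 reads, TMM factors (edgeR 4.0.16, R 4.3.3) were 0.824 (normal) and 1.21 (tumour). Folds carry exact conditional (Clopper-Pearson) 95% intervals and levels carry exact Poisson intervals. A count of 0 was replaced by 3 counts (0.124 and 0.119 CPM) and its fold is a bound. Intervals and floors cover counting error only, since PCR copies are not told apart from molecules. The steps were tested on simulated data, in which both libraries shared 1 profile and few genes were changed, equally in both directions. The simulation could therefore not test the scaling for libraries that differ as widely as these. Python 3.11.15, scipy 1.17.1 and DESeq2 1.42.0 (size factors only) were also used. With a single library in each group no test across samples could be made and no p-value was computed. With 2 libraries a gene's pattern is a single ratio, so no gene is named for likeness to a member.

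The members and all lists were chosen with earlier results of these data known. Named genes are all members, their neighbours on the chromosome and, from each pathway list at a mean of at least 1 CPM, the 3 with the greatest ratio on the side of the list's median and the greatest on the other side if it was at least 2-fold. Avp, Gnas, Nfat5 and Creb1, and the markers and other aquaporins named with values, were added after their values were seen. The erythroid marker list as a whole is not reported here.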

Additional observations from a re-analysis of the deposited data

How the results depend on the processing

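All 10 members kept their direction under plain CPM, header totals, DESeq2 size factors, RPKM plus 0.1 or 1, library sizes without mitochondrial models and Rn45s, and summed models. The log2 ratio of Aqp1 ranged from -7.15 to -6.25 and that of Aqp3 from -2.46 to -1.89. With RPKM plus 1, which understates changes of low genes, Aqp5 had 0.37 and was not called, and Aqp6, Aqp8 and Avpr2 had -1.33, 1.67 and -2.51. Of 270 alternative values, 237 kept their direction and call (for counts, within 1.5 times the reported count), 28 moved, 3 were weaker and 2 turned their sign. Those 2 were the medians of the signalling and trafficking lists, 0.065 and 0.023 with plain CPM, which moved the median of all genes by 0.56.

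With plain CPM, header totals and RPKM plus 0.1, trafficking genes called lower were 4 and transcription factors called higher 3. With plain CPM trafficking genes called higher were 4. Of all 16326 measured genes these 3 scalings called 3297, 3713 and 3552 lower and 6876, 6194 and 5936 higher. With RPKM plus 1, 2758 genes of all were lower and 4005 higher. In that setting 3 signalling and 4 trafficking genes were lower, and 2 transcription factors and 0 of the other aquaporins were higher. The medians of the last 2 lists were -0.42 and 0.58. With a minimum of 1 read, 2 members and 2 other aquaporins were called higher, beside 5826 of all 21092 genes. With 100 reads 0 other aquaporins were, beside 3827 of 13670. At 4-fold, 2573 genes of all were lower and 3023 higher, 3 signalling genes lower and 2 higher, 3 trafficking genes lower and 0 higher, and 0 urine concentration genes higher. As shares of reads, not per length, Aqp1, Aqp2, Aqp3 and Aqp4 took 80.8%, 4.89%, 6.21% and 2.23% in the normal library, and Aqp1 and Aqp4 22.2% and 2.95% in the tumour, since their lengths differ. Aqp8 took 13.8% of the aquaporin reads of the tumour library, less than Aqp1, where per length it took more (17.7% against 15.2%). The cause of the other shifts was not tested. No paired analysis was possible because each group has 1 library. At this depth, Aqp5, Aqp6, Aqp7 and Avpr2 rest on at most 15 reads in the tumour library.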

Other observations

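The genes next to the members on the chromosome did not share their direction throughout. Lower with their member were Fam188b beside Aqp1 (log2 ratio -1.40) and L1cam beside Avpr2 (-1.73). So were Kctd1 (-1.62) and Chst9 (-6.05, with 63 and 1 reads) beside Aqp4. On the higher side were Nol6 beside Aqp3 (1.12), Nfx1 beside Aqp7 (0.98), Pak1 beside Aqp11 (0.40) and Naa10 beside Avpr2 (0.70). Faim2 beside Aqp2 had 0 and 10 reads, and Ghrhr beside Aqp1 had 0 in both. Beyond Aqp6, 15018 bases away on the opposite strand, lies Racgap1, which acts in cytokinesis and had 69 reads in normal kidney against 2855 in the tumour (log2 ratio 5.30), where Aqp6 had -4.46. Beside Aqp11, Clns1a, a chaperone of splicing complexes, had a log2 ratio of 1.65, where Aqp11 had -5.23. Beside Aqp8, Zkscan2, a zinc finger gene on the opposite strand and 10635 bases away, had 5 and 101 reads and a log2 ratio of 4.27, close to the 4.28 of Aqp8, while Lcmt1 on the other side had 0.30. Aqp7 and Aqp3 are neighbours on chromosome 4 with 44587 bases between them, and their log2 ratios were -6.64 and -2.45.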
